A study of Mus musculus with 4 samples.

Results

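Chemokines are small secreted proteins that guide leukocytes along a gradient by binding G protein-coupled receptors on them. The CC and CXC classes are named for the spacing of their first cysteines. Microglia, the resident macrophages of the retina, make several of them when NF-kB and MAP kinase pathways are active, and TAK1, the kinase encoded by Map3k7, sits upstream of both pathways. In these cells the ligands of the receptor Ccr2 are known for drawing in monocytes, those of Ccr1 for drawing in monocytes and T cells, and those of Cxcr2 for drawing in neutrophils.

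The 10 ligands described here are Ccl2, Ccl3, Ccl4, Ccl6, Ccl7, Ccl9, Ccl12, Cxcl2, Cxcl10 and Cxcl16, chosen by gene symbol from a table of 15586 genes. All 10 were in the table, and 9 had a mean of at least 1 FPKM (fragments per library, corrected for sequencing depth and for how long the transcript is); Cxcl10 did not. The list was drawn up with the FPKM of the same libraries in view, so the values of these genes are a description and none of them is tested.

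Libraries of 200 sorted EYFP-labelled retinal microglia each were made from 2-month-old mice, 2 for each group. Control mice, of genotype Cx3cr1CreER/+;Tak1fl/fl, received corn oil intraperitoneally for 5 days, and the TAK1 knockout group was given tamoxifen, 75 mg/kg, over the same number of days. The genotype label of the knockout samples reads Cx3cr1CreER/+;Tak3fl/fl, whereas the shared protocol gives Tak1fl/fl for both groups. Both groups carry the inducible Cre at the Cx3cr1 locus, which is also active in monocytes and other macrophages, and tamoxifen was given to the knockouts only, so drug and deletion cannot be told apart. No disease allele is named for these samples, and nothing in the labels says whether libraries came from separate animals. Spread between libraries may therefore be technical.

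Of the 10 ligands, 8 lie on chromosome 11 and 2, Cxcl2 and Cxcl10, on chromosome 5 (GRCm38, the build also called mm10, GENCODE vM21). Ccl2 (82035571 to 82037453), Ccl7 (82045712 to 82047525) and Ccl12 (82101845 to 82103400) stand in that order on the plus strand of chromosome 11, with 3 exons each. Ccl9, Ccl6 and Ccl3 follow on the minus strand and Ccl4 on the plus strand, between 83572919 and 83664683. The longest protein-coding transcripts ran from 537 bases in Ccl12 to 3006 bases in Ccl9. Coding sequences of pairs of members were at most 68.4% identical (Ccl3 and Ccl4), and no pair of these transcripts shared an identical run longer than 25 bases (Ccl6 and Ccl9).

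Upstream sequence was in the RefSeq promoter table (GRCm38.p6) for 6 of the 10: Ccl3, Ccl6, Ccl9, Ccl12, Cxcl2 and Cxcl10. Those of 5 are printed because they span the range of behaviour below: Ccl12, Ccl3 and Ccl9 lay below the controls in both knockouts, Cxcl2 was high in a single library, and Cxcl10 was at or near 0. Each reads 5′ to 3′ on the gene's own strand and ends at the annotated start (Cxcl2 stops where the GENCODE gene begins, a little before its RefSeq start, and distances below count from the RefSeq start). Capitals mark matches, on either strand, to 4 patterns. The AP-1 pattern was TGAGTCA. For NF-kB the pattern was GGGNNNTTC, which leaves out the last base of the usual site, and for interferon-response elements it was GAAANNGAA, likewise without the last base. Last, the letters searched for the TATA box, which positions the transcription machinery, were TATAAA.
Ccl12, chr11:82101595-82101844, plus strand: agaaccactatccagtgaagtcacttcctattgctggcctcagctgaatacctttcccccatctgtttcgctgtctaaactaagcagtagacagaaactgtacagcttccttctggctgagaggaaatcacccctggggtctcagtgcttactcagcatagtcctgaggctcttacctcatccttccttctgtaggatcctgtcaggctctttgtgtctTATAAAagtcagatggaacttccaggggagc
Ccl3, chr11:83649379-83649628, minus strand: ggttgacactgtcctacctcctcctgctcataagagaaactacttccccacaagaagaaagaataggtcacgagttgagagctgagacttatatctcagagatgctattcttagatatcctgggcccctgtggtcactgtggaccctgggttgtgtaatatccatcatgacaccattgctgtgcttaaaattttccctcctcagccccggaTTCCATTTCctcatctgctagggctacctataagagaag
Ccl9, chr11:83578637-83578886, minus strand: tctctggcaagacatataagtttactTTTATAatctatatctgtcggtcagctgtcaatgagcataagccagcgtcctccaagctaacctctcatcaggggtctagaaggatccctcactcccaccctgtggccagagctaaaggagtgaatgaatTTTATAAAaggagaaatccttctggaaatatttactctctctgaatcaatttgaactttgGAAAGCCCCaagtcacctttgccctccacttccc
Cxcl2, chr5:90903649-90903870, plus strand: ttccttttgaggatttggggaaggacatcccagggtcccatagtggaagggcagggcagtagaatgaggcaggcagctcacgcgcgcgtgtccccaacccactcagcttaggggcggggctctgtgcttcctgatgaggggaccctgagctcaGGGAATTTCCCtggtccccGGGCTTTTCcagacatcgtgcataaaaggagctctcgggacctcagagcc
Cxcl10, chr5:92348890-92349139, minus strand: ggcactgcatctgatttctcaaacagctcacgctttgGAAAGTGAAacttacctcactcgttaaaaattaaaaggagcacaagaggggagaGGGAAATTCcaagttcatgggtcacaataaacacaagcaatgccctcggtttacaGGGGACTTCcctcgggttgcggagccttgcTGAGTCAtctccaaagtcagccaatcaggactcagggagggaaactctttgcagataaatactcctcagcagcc

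Cxcl10 held the NF-kB pattern at 2 places, 159 and 104 bases before the start, with the AP-1 pattern 74 bases and the interferon-response pattern 213 bases before it. Cxcl2 held the NF-kB pattern on its own strand 97 and 78 bases before the start, and the first of these overlaps a match on the opposite strand. Ccl12 held the TATA box, 31 bases before the start, and none of the other patterns, and Ccl3 held only an interferon-response match on the opposite strand, 39 bases before the start. Ccl9 held the NF-kB pattern on the opposite strand, 34 bases before the start, and 3 matches to the TATA box letters, at 224, 94 and 92 bases, of which the nearest pair overlap. The window of Ccl6, not printed, held none of the 4 patterns. Over 32851 promoter windows of 250 bases in the same table, 11.8% held the NF-kB pattern, 4.46% the AP-1 pattern, 7.13% the interferon-response pattern and 12.4% the TATA box. A match is a run of letters and not a shown binding site, and a window without one says nothing about the factor.

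The number of reads per library is unknown, and summed FPKM ran from 812009 to 969700. Genes at 1 FPKM or more numbered 4481 in control 1, 3777 in control 2, 6055 in knockout 1 and 5628 in knockout 2. The shares and medians over all genes tested, given below as background, include that gap in detection. In 2514 of the 7823 genes that averaged 1 FPKM or more (32.1%), 1 library held over 90% of the summed FPKM, and among the 9 ligands past that filter this held for Cxcl2. A value near 0 in 1 library therefore does not show that the gene was silent. Map3k7 itself read 0.03 and 0 FPKM in control 1 and 2 and 0.02 and 0.08 in knockout 1 and 2, so it could not check the labels. Markers of microglia were present: all 13 listed were in the table, and P2ry12, the microglial purine receptor gene, read 569 to 1794 FPKM.

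Transcripts of the 10 ligands took a smaller share of the library in both knockouts than in either control. They held 11.8% of summed FPKM in control 1, 3.69% in control 2, 0.834% in knockout 1 and 3.22% in knockout 2, which is 7.73 ± 5.71% (SD, n = 2) against 2.03 ± 1.69% (SD, n = 2). The groups did not overlap, but control 2 and knockout 2 lay close together while control 1 stood far above both. Without control 1 the knockouts were 1.66 percentage points below the controls, in place of 5.7. In these bulk libraries, fewer cells of a type and less RNA per cell cannot be told apart.

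**Figure D1:**
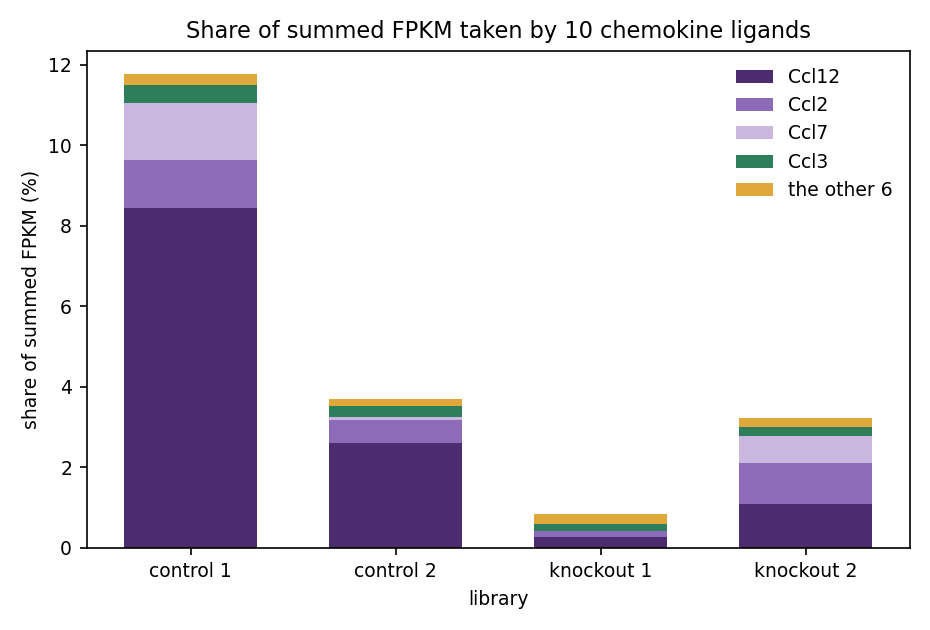
Stacked bars give the share of summed FPKM, in percent, taken by Ccl12, Ccl2, Ccl7, Ccl3 and the other 6 ligands in each of the 4 libraries. Control 1 reached 11.8% and knockout 1 0.834%, and most of each control bar is Ccl12.

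Ccl12 alone made most of that difference. It encodes a Ccr2 ligand, found in mice, that attracts monocytes. Its level was 81986 FPKM in control 1, 22413 in control 2, 2287 in knockout 1 and 8969 in knockout 2. Both knockouts lay below both controls, although the higher and lower library of each group differed by 1.87 (controls) and 1.97 (knockouts) log2 units. The controls averaged 9.28 times the knockouts (52199 ± 42125 against 5628 ± 4725 FPKM, SD, n = 2 each), and knockout minus control was -3.24 on the log2(FPKM + 1) scale, the quantity called the difference below. Ccl12 was the most abundant of all genes in control 1 and ranked 2 in control 2, 34 in knockout 1 and 6 in knockout 2. Its share of the ligands' summed FPKM was 71.8% and 70.4% for the controls against 33.3% and 34.3% for the knockouts. Without Ccl12 the other 9 ligands took 3.31%, 1.09%, 0.556% and 2.12% of summed FPKM in the same order of libraries, and the groups overlapped.

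The neighbouring Ccr2 ligands had no such order. Ccl2, the best known monocyte attractant, read 11395 FPKM in control 1, 4999 in control 2, 1164 in knockout 1 and 8224 in knockout 2. Knockout 2 lay between the controls and knockout 1 below them. Ccl7, which binds Ccr1 and Ccr3 as well as Ccr2, read 13902 FPKM in control 1, 564 in control 2, 9.52 in knockout 1 and 5415 in knockout 2. Its highest library stood 1460 times above its lowest, and knockout 2 exceeded control 2. The difference was -1.29 for Ccl2 and -3.55 for Ccl7 on the log2(FPKM + 1) scale, with gaps between the knockouts of 2.82 and 9.01 log2 units. Without knockout 1 both differences were positive, 0.12 for Ccl2 and 0.95 for Ccl7. The trio of Ccr2 ligands made up 94.0% and 87.9% of the ligands' summed FPKM for the controls, 50.4% in knockout 1 and 86.4% in knockout 2.

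**Figure D2:**
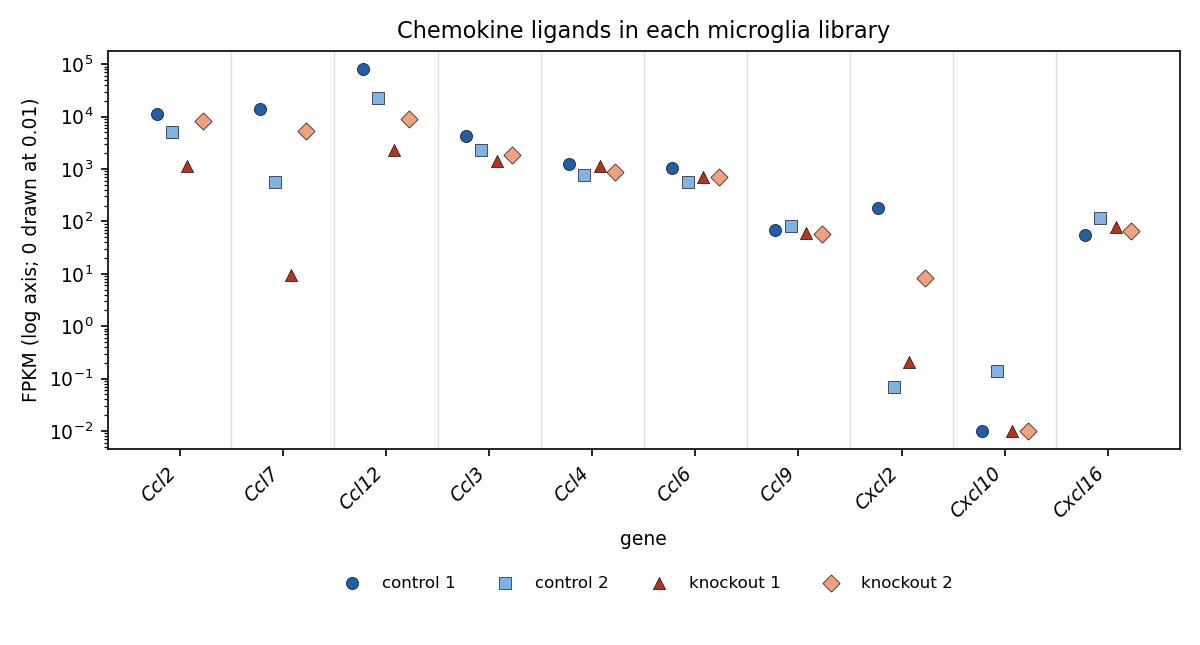
Points give the FPKM of each ligand in each library on a log axis, with values of 0 drawn at 0.01; colour and shape name the library. Ccl12, Ccl3 and Ccl9 have both knockout points below both control points, whereas Ccl7 and Cxcl2 spread furthest between libraries.

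Ccl3 and Ccl4, which encode the macrophage inflammatory proteins, lie side by side and behaved differently from each other. Ccl3 read 4243 FPKM in control 1, 2317 in control 2, 1430 in knockout 1 and 1848 in knockout 2. Both knockouts lay below both controls, at 1639 ± 296 against 3280 ± 1362 FPKM (SD, n = 2 each), and the difference was -0.95 on the log2(FPKM + 1) scale. It stayed negative, between -1.38 and -0.51, whichever library was left out. Ccl4 read 1223 FPKM in control 1, 778 in control 2, 1140 in knockout 1 and 879 in knockout 2. Its knockouts lay between the controls, and its group means were nearly equal, at 1000.3 ± 315 and 1009.97 ± 185 FPKM (SD, n = 2 each).

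Ccl6 and Ccl9, CC ligands of Ccr1 that myeloid cells make without stimulation, varied least over the libraries, together with Ccl4 and Cxcl16. Ccl6 read 1055, 564, 696 and 713 FPKM for control 1, control 2, knockout 1 and knockout 2, with both knockouts between the controls. Ccl9 read 67.8, 83.5, 61.4 and 57.2 FPKM in the same order. Both knockouts lay below both controls for Ccl9, but by little: the highest library stood 1.46 times above the lowest, the smallest such ratio among the 9 ligands past the filter. Its difference was -0.34 on the log2(FPKM + 1) scale. After division by the summed FPKM of each library, Ccl9 took 0.00699%, 0.00967%, 0.00745% and 0.00704%, and the groups overlapped.

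The CXC ligands were scarce. Cxcl16, a membrane-bound chemokine that also acts as a scavenger receptor, read 56.3, 116, 76.8 and 66.7 FPKM for control 1, control 2, knockout 1 and knockout 2, and the groups overlapped. Cxcl2, the neutrophil attractant, read 182 FPKM in control 1, 0.07 in control 2, 0.21 in knockout 1 and 8.44 in knockout 2. Control 1 held 95.4% of its summed FPKM, and without control 1 its difference turned from -2.05 to 1.66 on the log2(FPKM + 1) scale. Cxcl10, an interferon-induced attractant of T cells, was listed at 0 in control 1 and in both knockouts and at 0.14 FPKM in control 2. Together the 3 CXC genes took 0.00925% to 0.0246% of summed FPKM.

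In the whole-table comparison, limma's moderated test with Benjamini-Hochberg adjustment called 0 of 7823 genes higher and 0 lower in the knockouts (0.00% each; smallest adjusted p = 0.547), and before adjustment 475 higher and 127 lower genes had a p under 0.05. Of the 10 ligands, 3 (Ccl3, Ccl9 and Ccl12) had both knockouts below both controls and 0 had both above. Over all genes tested, 11.4% lay below and 27.8% above, and among the 1177 genes that averaged 100 FPKM or more, 26.5% lay below and 19.0% above. The ligands at that level were 6, of which 2 (Ccl3 and Ccl12) lay below, a share close to that background. The median difference of the 9 ligands past the filter was -0.95 on the log2(FPKM + 1) scale, against 0.94 for all genes tested. For the 6 ligands at 100 FPKM or more it was -1.12, against -0.11 for all genes at that level. Since the ligands were chosen from these values, the counts and medians describe them and support nothing further.

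**Figure D3:**
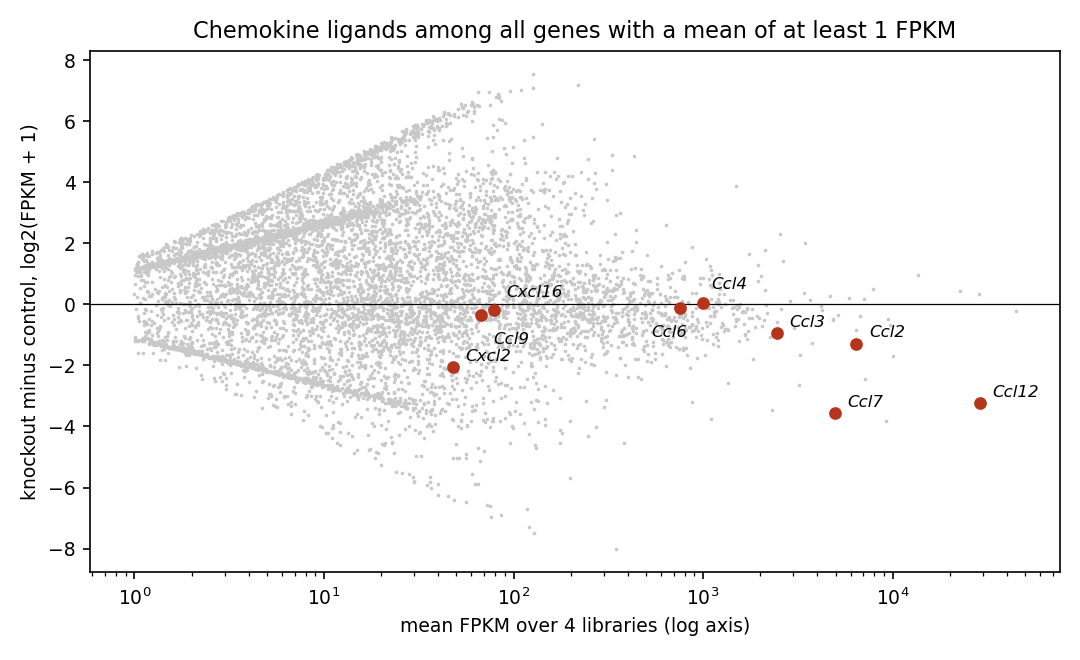
Each grey point is a gene that averaged 1 FPKM or more, placed by its mean over the 4 libraries (log axis) and its difference (knockout minus control, log2(FPKM + 1)); red points are the 9 ligands. Ccl12 at -3.24 and Ccl7 at -3.55 stand low at the abundant end, and Ccl4, Ccl6, Ccl9 and Cxcl16 lie near 0.

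Ratios between ligands within a library do not depend on how the library was scaled; these pairs were picked after the values were seen. The ratio of Ccl12 to Ccl2 in FPKM was 7.2 and 4.48 for the controls and 1.97 and 1.09 for the knockouts. Ccl3 to Ccl4 stood at 3.47 and 2.98 for the controls and at 1.25 and 2.10 for the knockouts. In both pairs the knockouts lay below the controls, which does not say which partner of the pair differed. For Ccl7 to Ccl2 the values were 1.22, 0.113, 0.00818 and 0.658, and for Ccl6 to Ccl9 they were 15.6, 6.76, 11.3 and 12.5, for control 1, control 2, knockout 1 and knockout 2. Neither of those pairs had an order by group. No ratio was tested, because the pairs and the ligands were picked with the values in view.

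**Figure D4:**
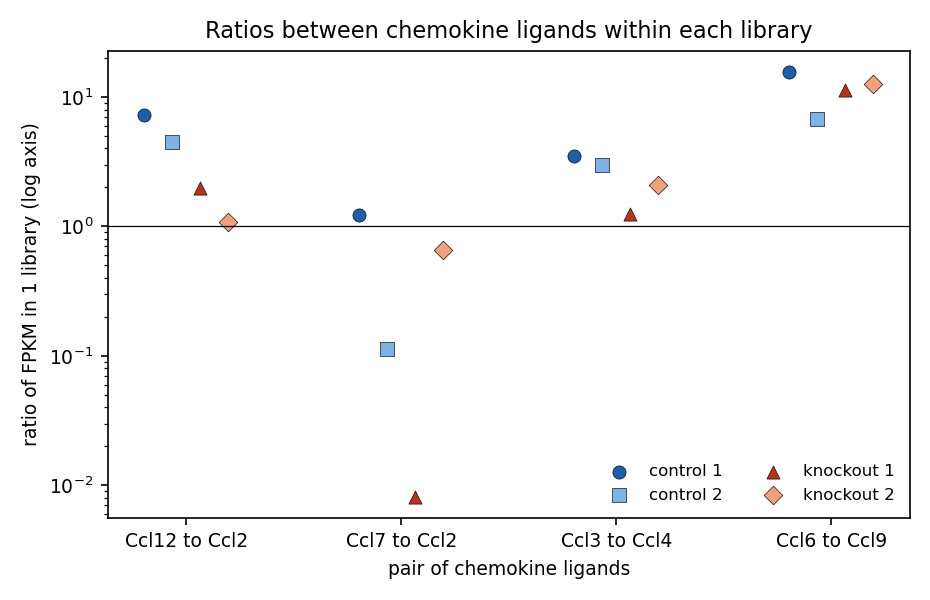
Points give the ratio of FPKM between ligands of a pair within each library, on a log axis with a line at a ratio of 1. The knockout points lie below both control points for Ccl12 to Ccl2 and for Ccl3 to Ccl4, and the groups overlap for Ccl7 to Ccl2 and Ccl6 to Ccl9.

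Among receptors for the CC ligands, Ccr1 was detected in every library and Ccr2 mainly in the controls, whereas those for the CXC ligands were listed at or near 0. Of 23 listed chemokine receptors, 16 were in the table and 6 had a mean of at least 1 FPKM. None of the 6 passed limma's test (0 higher, 0 lower, smallest adjusted p = 0.559). Before adjustment 0 higher and 1 lower had a p under 0.05. Of the 6, 3 (Ccr2, Ccr1 and Cx3cr1) lay below and 0 above the controls, against 11.4% and 27.8% of all genes. Cx3cr1 did so only by 88.24 FPKM in knockout 1 against 88.89 in control 2. Knockout 1 had the smaller summed FPKM (823229 against 863652), so that order depends on scaling. The median difference of the 6 was -0.96 on the log2(FPKM + 1) scale. Ccr2, the receptor of Ccl2, Ccl7 and Ccl12 and a marker of inflammatory monocytes, read 316 and 151 FPKM for the controls and 1.81 and 0.59 for the knockouts. Both knockouts lay far below both controls, in the same direction as Ccl12 (limma adjusted p = 0.559 for Ccr2). Ccr1, which binds Ccl3, Ccl6 and Ccl9, read 85.4 and 101 FPKM for the controls and 47.6 and 23.0 for the knockouts (limma adjusted p = 0.698). Cx3cr1, the microglial receptor whose locus carries the Cre, read 101, 88.9, 88.2 and 73.0 FPKM for control 1, control 2, knockout 1 and knockout 2. Cxcr2, the receptor of Cxcl2, read at most 0.23 FPKM, and Cxcr3 and Cxcr6, the receptors of Cxcl10 and Cxcl16, were listed at 0 in all 4 libraries.

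**Figure D5:**
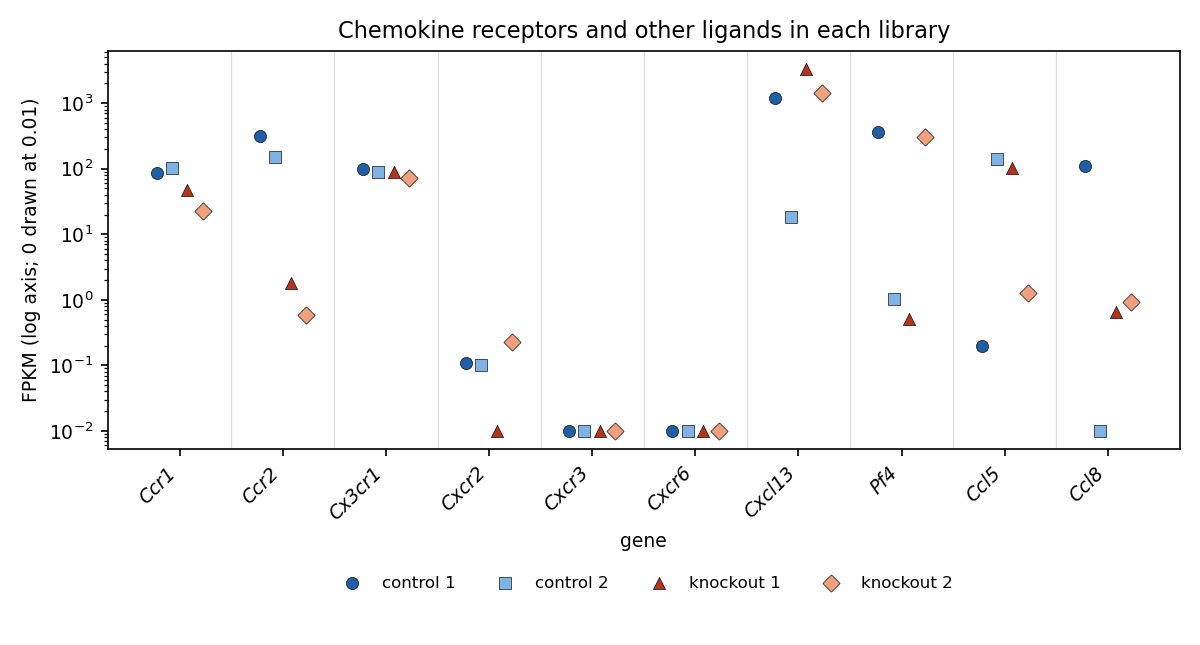
Points give the FPKM of chemokine receptors and of 4 other chemokine ligands in each library on a log axis, with values of 0 drawn at 0.01. Ccr2 separates the groups, from 151 FPKM and more for the controls to 1.81 and less for the knockouts, whereas Pf4, Ccl5 and Ccl8 have no order by group.

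Of 31 other listed chemokine ligands, 13 were in the table and 8 had a mean of at least 1 FPKM. None of the 8 passed limma's test (0 higher, 0 lower, smallest adjusted p = 0.698; 0 in either direction at an unadjusted p under 0.05). Of these, 2 (Cxcl13 and Cxcl14) had both knockouts above both controls and 0 had both below, where 27.8% and 11.4% of all genes did, so the count above is at the background. Their median difference was -0.06 on the log2(FPKM + 1) scale, against 0.94 for all genes. Cxcl13, the B cell attractant, read 1185 FPKM in control 1, 18.1 in control 2, 3335 in knockout 1 and 1447 in knockout 2. Its controls differed far more from each other than control 1 did from knockout 2. Pf4, a CXC ligand of platelets and some macrophages, read 367, 1.04, 0.51 and 303 FPKM for control 1, control 2, knockout 1 and knockout 2. Ccl5 read 0.20, 141, 101 and 1.29 FPKM in that order, and Ccl8 read 110 FPKM in control 1 and under 1 FPKM in the others. The other listed ligands together took 0.175% and 0.0312% of summed FPKM for the controls and 0.419% and 0.222% for the knockouts, the reverse of the order of the 10. That order was carried by Cxcl13: without it their summed FPKM was 511 and 252 for the controls and 113 and 353 for the knockouts, and the groups overlapped. In knockout 1 they made up 33.4% of all listed ligand FPKM, against 6.43% in knockout 2 and 1.46% and 0.840% for the controls.

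No gene of the chemokine pathway lists passed limma's test. Over the 5 lists of other ligands, receptors, receptor signalling, shedding and cleavage, and transcription factors with their brakes, 59 genes were tested. Limma called 0 higher and 0 lower (before adjustment 3 higher and 2 lower had a p under 0.05), and 14 lay above and 10 below the controls, where 27.8% and 11.4% of all genes did. By list, 2 of 8 other ligands lay above and 0 below, and of 6 receptors 0 lay above and 3 below. The count above for the ligands is at the background. The count below for the receptors rests on few genes, with Cx3cr1 below by little. Of 19 receptor signalling genes, 5 lay above and 2 below, both close to the background shares, and their median of 0.61 on the log2(FPKM + 1) scale stands beside 0.94 for all genes. Gnb1, a G protein beta subunit, read 727 and 757 FPKM for the controls and 866 and 2522 for the knockouts, and Gng5, a gamma subunit, read 2244 and 1362 against 1302 and 1096. Rgs1, which shortens G protein signals, read 590, 209, 405 and 1.93 FPKM for control 1, control 2, knockout 1 and knockout 2, and Rgs10 read 635, 842, 1127 and 414. Only Gnb1 and Gng5 of these 4 had groups that did not overlap in FPKM, in opposite directions. For Gng5 the order rests on 1362 in control 2 against 1302 in knockout 1. Knockout 1 had the smaller summed FPKM (823229 against 863652), so the order of Gng5 depends on scaling.

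Adam10, the protease that sheds Cxcl16 from the membrane, read 206 and 198 FPKM for the controls and 97.1 and 141 for the knockouts, and Adam17, a related sheddase, read 5.12 and 0.72 against 19.4 and 66.2 (limma adjusted p = 0.698 for each). Mmp12 and Mmp9, metalloproteases that can cleave chemokines, read 106 and 17.0 FPKM in control 1 and under 1 FPKM elsewhere. Of the shedding and cleavage list, 4 genes were tested, with 1 above and 1 below, where 27.8% and 11.4% of all genes lay.

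Among 22 tested transcription factors and brakes of chemokine genes, 6 lay above and 4 below, beside 27.8% and 11.4% of all genes, with a median of 0.53 on the log2(FPKM + 1) scale against 0.94 for all genes. Fos, a subunit of AP-1, read 692 and 679 FPKM for the controls and 411 and 220 for the knockouts. Nfkbia, the NF-kB inhibitor that NF-kB itself induces, read 80.1 and 131 FPKM for the controls and 153 and 155 for the knockouts. So Fos stood lower and Nfkbia higher in both knockouts, without passing limma's test (adjusted p = 0.698 and 0.739). Zfp36, which destabilizes cytokine and chemokine transcripts, read 125, 0.60, 97.5 and 17.0 FPKM for control 1, control 2, knockout 1 and knockout 2, and Nfkbiz read 22.1, 120, 48.7 and 23.0. Of 18 tested genes that cell isolation can induce, 2 lay above and 4 below, where all genes lay more often above (27.8%) than below (11.4%). Their summed FPKM was 1952, 1178, 2276 and 1081, with no order by group. Without Dusp1, the most abundant, it was 1410 and 1008 for the controls and 999 and 677 for the knockouts. Those sums did not overlap, but 1008 and 999 lie close together. They include Fos, the next most abundant, which was itself lower in both knockouts. Dusp1, a phosphatase of MAP kinases on that list, read 542, 169, 1278 and 404 FPKM, with no order by group.

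Summed markers of monocytes, dendritic cells and perivascular macrophages were lower in both knockouts, mostly through 1 gene in each list, and their part in the ligand differences was not tested. Summed FPKM of the monocyte markers (9 of 11 in the table) was 465 to 500 for the controls and 83.9 to 128 for the knockouts, and Vcan was under 1 FPKM in every library. Of 8 tested monocyte markers only Ccr2 had both knockouts below both controls, and the other 7 overlapped. Plac8 read 173 FPKM in control 2 and under 1 FPKM elsewhere, and F13a1 read 119 FPKM in knockout 2 and under 1 FPKM elsewhere. Without Ccr2 the sum was 149 and 348 FPKM for the controls and 82.1 and 127 for the knockouts, without overlap before scaling. Control 1 at 149 and knockout 2 at 127 lie close together. Since control 1 also had the larger summed FPKM over all genes (969700 against 812009), the order of these sums depends on scaling. Dendritic cell markers (7 of 9) summed to 570 to 939 against 36.5 to 38.1 FPKM, nearly all of it Cd209a, at 503 and 886 against 1.19 and 2.10 FPKM. All 3 tested dendritic cell markers lay below, beside 11.4% of all genes. Batf3 did so by little, at 42.8 and 49.1 against 36.9 and 34.2 FPKM. Summed FPKM was 969700 in control 1 and 823229 in knockout 1, so the order of Batf3 depends on scaling. Clec10a read 24.1 FPKM in control 1, 0.10 in control 2 and 0 in both knockouts, so its order rests on values near 0. Without Cd209a the list summed to 67.0 and 52.9 against 37.0 and 34.4 FPKM. Zbtb46, Xcr1 and Ccr7 were under 1 FPKM throughout. Perivascular macrophage markers (9 of 10) summed to 1553 to 2190 against 190 to 721 FPKM, with Cd163 and Siglec1 under 1 FPKM throughout. Ms4a7 of that list read 1614 and 1547 FPKM for the controls and 189 and 155 for the knockouts, and it alone separated the groups. Without Ms4a7 the list summed to 576, 6.73, 0.74 and 566 FPKM for control 1, control 2, knockout 1 and knockout 2, and the groups overlapped.

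Within the same macrophage list, Pf4 and Mrc1, the mannose receptor gene, were high in control 1 and knockout 2 and low in the other two libraries. Mrc1 read 97.1, 5.32, 0.05 and 97.2 FPKM for control 1, control 2, knockout 1 and knockout 2. Ccl7 and Ccl2 had their highest values in those libraries too, 13902 and 5415 FPKM for Ccl7 and 11395 and 8224 for Ccl2, and Ccl7 and Mrc1 were both lowest in knockout 1. Other markers of the list did not follow: Folr2 was high in control 1 only, at 111 FPKM, and Cbr2 and Lyve1 in knockout 2 only, at 96.7 and 61.8 FPKM. This resemblance was noticed after the values were seen and covers 4 libraries.

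In the opposite direction, summed microglia markers were 2137 to 2436 FPKM for the controls and 3419.8 to 5893 for the knockouts, with 8 of 13 above and 1 below, where 27.8% and 11.4% of all genes were. Rod markers (13 of 13) summed to 2193 to 3208 against 6205 to 9213 FPKM, with 11 of 13 above and 0 below. Müller glia and astrocyte markers (10 of 10) summed to 181 to 403 against 629 to 1020 FPKM, with Gfap, Kcnj10 and Aldh1l1 under 1 FPKM. Only Glul of their 6 tested genes lay above, and without it the list summed to 96.0 and 85.5 FPKM for the controls and 246 and 29.9 for the knockouts, which overlapped. Endothelial markers (5 of 8) summed to at most 0.50 FPKM for the controls and to 8.32 and 15.9 for the knockouts, nearly all of it Flt1, while Pecam1, Cdh5, Kdr and Tek were under 1 FPKM in every library. Neutrophil markers (3 of 9) and T and NK cell markers (4 of 9) were under 1 FPKM in every library.

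Of 1171 other genes that averaged 100 FPKM or more, the 5 whose values over the 4 libraries lay nearest to those of Ccl12, by Euclidean distance between centred log2(FPKM + 1) values, were Insig1, Il1b, Spp1, Zc3hav1 and Ptges3, at distances of 1.16 to 1.68. Insig1, a regulator of sterol synthesis, read 372 and 92.6 FPKM for the controls and 24.2 and 37.9 for the knockouts. The cytokine gene Il1b read 638 and 388 against 24.8 and 36.6 FPKM. Spp1, which encodes osteopontin, read 6776 and 2731 against 631 and 2906 FPKM, so knockout 2 lay between its controls. Likeness over 4 libraries is a description only.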

How the data were processed

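The deposited table gives 1 FPKM value per gene and library, made by the authors and rounded to 2 decimals. Full-length cDNA was amplified by PCR from 200 sorted cells per library, per the labels' protocols, without molecular identifiers named. Per the submitters' processing notes, reads were placed on mm10; which aligner, quantifier and annotation were used is not given in the sources used here. Read depth is unknown, so no counting intervals are given.

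Values of log2(FPKM + 1), for genes that averaged 1 FPKM or more, were fitted with limma 3.58.1 (R 4.3.3; trended prior variance; Benjamini-Hochberg; threshold 0.05), on the whole table. The code was run on simulated data, and the outcome is not given here. With 2 libraries per group, a count of 0 called does not show that no gene differed. Shares are percent of summed FPKM. Positions, transcripts and coding sequences came from GENCODE vM21, aligned with Biopython 1.88; promoters came from RefSeq.

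The members, the lists, the tests and the rule for named genes were chosen with earlier results of these data known. The rule names all members, the receptors that bind them, the up to 4 most abundant genes per pathway list and 3 per marker list, Map3k7, and the 5 genes nearest to the most abundant member. Not every gene that the rule names was printed: Ccrl2, Btg2, Egr1 and the most abundant rod markers, among others, were left out. Other genes were named after their values were seen: Cxcl14, markers at or near 0, and F13a1, Folr2, Cbr2 and Lyve1. Sums without a list's most abundant gene were added after the data were seen. Same-numbered libraries were not paired by the labels. Alternatives were other pseudocounts, filters, scalings and variance settings, the replicate block, each library left out, other denominators and, after the data were seen, length weighting and omission of Ccl12. Some listed genes are not reported here and were left out of the list counts.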

Additional observations from a re-analysis of the deposited data

How the results depend on the processing

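The count of 0 genes called higher and 0 lower held under the other pseudocounts, filters, scaling to the same sum, median ratio scaling, the untrended and robust variance, an adjusted p under 0.1 and without either control. Quantile normalization called 2 higher and 3 lower. With the replicate number as a block limma called 15 higher and 20 lower, and 1 higher among the 59 other chemokine genes (Cxcl13). The smallest adjusted p of that limma fit was 1.6e-121, which is implausible for 4 libraries, so its calls, Cxcl13 included, are not relied on. The correlation of same-numbered deviations across the genes tested was 0.017. With 2 libraries per group, that value cannot show whether same-numbered libraries shared a batch, and the labels do not pair them. Leaving out a library gave 0 to 1306 genes higher and 0 to 5 lower: 697 and 4 without knockout 1, and 1306 and 5 without knockout 2, where the lone knockout is assumed to vary like the controls. Among the other chemokine genes these fits gave 0 to 6 higher and 0 lower. The cause was not tested.

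The median difference of the ligands (-0.95) ran from -1.38 to -0.27 with each library left out, the weakest without knockout 1. Relative to the median of all genes tested, 0.94, it stood at -1.89. That background median depended on the filter and the scaling, so the value of -1.89 does too. It was -0.11 over genes that averaged 100 FPKM or more, and 0.12 after quantile normalization. Ligands with both knockouts below the controls numbered 3, and 3 to 8 with a library left out (8 without control 2, 5 without knockout 2) and 2 after rescaling to the same sum; those above numbered 0 to 3. With 1 library fewer, more of all genes separate too: 27.3% lay below without control 2, 23.5% without knockout 2, and 42.1% to 45.6% lay above over the 4 omissions. Of 9 ligands, 3 (Ccl3, Ccl9 and Ccl12) stayed negative under every scaling, pseudocount and left-out library, and 6 changed sign at least once. The share difference of -5.7 percentage points ran from -9.74 to -1.66 with a library left out, was -0.86 without Ccl12, and was -2.24 when FPKM were weighted by transcript length, which counts the short chemokine transcripts less. Unknown depth leaves values near 0 uninterpretable.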
